A study of Mus musculus with 6 samples.

Results

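Circular RNAs generated by 4 genes, grouped here as cell-surface and matrix genes, were followed through white adipogenesis. Where the Cped1 protein acts was not examined, and its place in this group and in the matrix list is an assumption. The genes are Egfr, Dcbld2, Svep1 and Cped1. The members were 1 named circRNA of each gene and every other circRNA of the table that overlapped it on the same strand, which gave 8 members among 3662 circRNAs. The 4 named circRNAs were selected on their measured levels across the stages of these libraries, so their stage changes are given as a description and no test of them is reported. The 4 overlapping circRNAs were taken by position.

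The cultures came from the stromal vascular fraction (SVF), what is left of a digested fat pad once its adipocytes are gone. It was taken from inguinal white adipose tissue (WAT) of female C57BL/6 mice (C57BL/6J in the methods) 6 weeks old. All cells were grown in culture medium with serum. They were collected on day 0 (D0), when the culture was proliferating, on day 4 (D4), after 4 days with insulin, dexamethasone and 3-isobutyl-methylxanthine, and on day 8 (D8), after a further 4 days with insulin and triiodothyronine (T3). Each stage had 2 biological replicates, and each of the 6 libraries held RNA from which rRNA and linear RNA had been removed. No source says whether replicates came from separate mice, so the spread between them may be partly technical. The SVF can also hold endothelial cells, pericytes and immune cells, and no sort is described.

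A circular RNA (circRNA) forms when splicing joins the 3′ end of an exon backwards, to its own 5′ end or that of an exon upstream, and reads across this back-splice identify it. The epidermal growth factor receptor, encoded by Egfr, binds EGF-like ligands outside the cell and signals through the kinase domain inside it. Dcbld2 encodes a transmembrane protein with a CUB domain that resembles the neuropilins, Svep1 a large secreted matrix protein with a von Willebrand factor A domain, sushi and EGF-like repeats and a pentraxin domain, and Cped1 a protein with a cadherin-like and a PC-esterase domain.

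Libraries held 30110 and 32310 back-splice reads for D0, 43069 and 41658 for D4, and 45371 and 50672 for D8. A level in circCPM is a circRNA's share of these reads, scaled to 1000000. A back-splice is 1 junction whatever the length of the circle, so levels of different circRNAs were compared per junction. The paper proposes that some double PCR products arose from repeated rounds of reverse transcription on a circle. Such rounds could add junction reads, and their part in the levels and shares of different circles was not tested. A read was worth 33.2 circCPM in the shallowest library and 19.7 in the deepest. No value of the table equals 1, so a circRNA listed at 0 may have had 1 read, and no upper limit is given for such a value.

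Listed markers of cell types were looked up among the circRNAs. Of 15 preadipocyte and fibroblast markers 1 had a circRNA (Pdgfra), and of 26 adipocyte markers 10 did, with 37 circRNAs. Of 14 immune markers 3 had a circRNA (Adgre1, Kit and Mertk), whereas 0 of 12 endothelial and 0 of 11 pericyte and smooth muscle markers did. Many expressed genes yield no circRNA, so a missing circRNA does not show that a cell type was absent. The adipocyte markers summed to 4816 and 3188 circCPM in D0 libraries, 11400 and 11162 in those of D4, and 20233 and 18097 in those of D8. The immune markers summed to 66.4 and 186 circCPM at D0, 627 and 576 at D4, and 771 and 474 at D8. The Pdgfra circRNA had 266 and 310 circCPM at D0, 69.7 and 0 at D4, and 88.2 and 98.7 at D8. The adipocyte and immune sums were thus higher on D4 and D8 and Pdgfra lower, but the adipocyte list took in Acss3, Bckdhb and Mlxipl with their changes in these libraries known, so part of its rise is built in. The immune sum rests on 4 circRNAs with 118 reads in all, and the Pdgfra circRNA had 30. Sums can also hold circRNAs that entered the table through a later stage, which in part decides their comparison with D0. The part of these cells in the results that follow was not tested.

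The back-splices that identify the named circRNAs are printed from the mm9 genome, since these joints are what the reads counted. Each line holds 30 bases before the joint, in lower case, and 30 bases after it, in capitals.
Egfr: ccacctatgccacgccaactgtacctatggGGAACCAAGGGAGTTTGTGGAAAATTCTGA
Dcbld2: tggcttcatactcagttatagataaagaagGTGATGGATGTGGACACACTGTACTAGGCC
Svep1: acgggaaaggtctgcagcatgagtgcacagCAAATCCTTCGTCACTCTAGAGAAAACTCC
Cped1: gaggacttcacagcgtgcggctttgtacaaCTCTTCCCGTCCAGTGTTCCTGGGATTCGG

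All 8 members had both ends at annotated exon ends, with AG before and GT after the ends in the genome, as in 3646 of all 3662 circRNAs. The Egfr circRNA (mmu_circ_0002861, chr11:16781467-16783616, plus strand) holds exons 14 and 15 of 28, which encode codons 544 to 627 of 1210 in the extracellular part of the receptor. The Dcbld2 circRNA (mmu_circ_0000693, chr16:58424674-58433576, plus strand) holds exons 2 and 3 of 16, within the region that encodes the CUB domain. The Svep1 circRNA (mmu_circ_0011707, chr4:58188803-58192579, minus strand) holds exons 2 and 3 of 48. The Cped1 circRNA (mmu_circ_0001447, chr6:22082229-22095687, plus strand) holds exons 11 to 15 of 22, in a gene that the annotation of this build calls A430107O13Rik. All of these exons are coding, and no member holds bases of a UTR.

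The 3338 circRNAs that could be spliced from 1 annotated transcript had a median spliced length of 444 bases and a median of 3 exons. The Egfr circRNA spans 249 bases, the Dcbld2 circRNA 366, the Svep1 circRNA 433 and the Cped1 circRNA 636, which are percentiles 9.50, 33.8, 48.2 and 75.7 of these lengths. Spliced lengths of the Egfr, Dcbld2 and Cped1 circles can be divided by 3, so a frame read round them does not shift, and that of the Svep1 circle cannot. Of 2698 circles made of coding bases only, 38.0% had a length divisible by 3. The introns beside the named circles ranged from 3204 bases before and 3527 after the Egfr circle to 69824 bases after the Cped1 circle, against medians of 10579 before and 8226 after all circles. The longest inverted match between the 1000 bases on either side was 9 to 11 bases for the members, and its median over 3006 circles was 11.

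**Figure D1:**
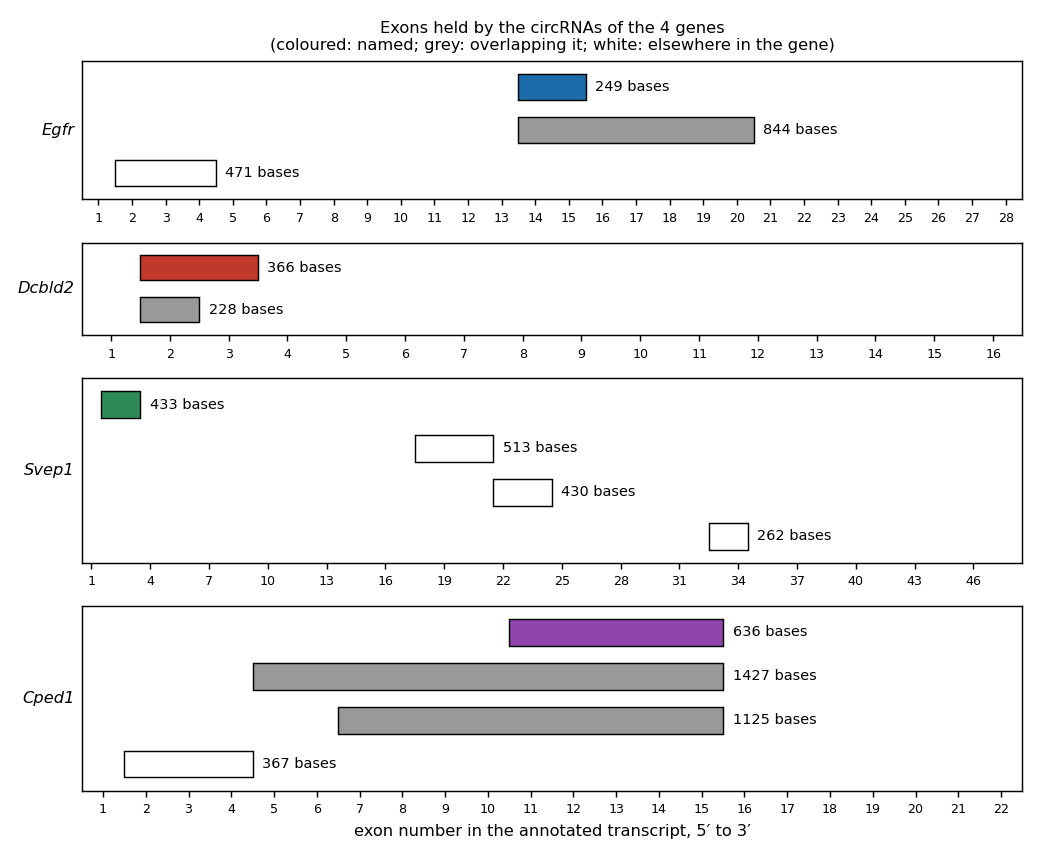
Exons held by the 13 circRNAs of the 4 genes, by exon number of the annotated transcript on the x axis, 1 panel for each gene, with spliced lengths beside the bars. Coloured bars are the named circRNAs, grey bars the 4 circRNAs that overlap them and white bars the 5 elsewhere in the genes; all 3 Cped1 members end at exon 15.

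The whole Egfr circle is short enough to print, and shows the coding sequence carried by the named circRNA with the largest ratio between stages. Exon 14 is in lower case and exon 15 in capitals.
Egfr circle: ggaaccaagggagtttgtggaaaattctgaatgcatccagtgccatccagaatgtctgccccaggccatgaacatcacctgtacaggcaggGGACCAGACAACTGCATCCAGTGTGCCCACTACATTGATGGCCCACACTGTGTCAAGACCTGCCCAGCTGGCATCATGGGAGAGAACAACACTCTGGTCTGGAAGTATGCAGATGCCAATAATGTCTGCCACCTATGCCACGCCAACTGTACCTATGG

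The Egfr circRNA was low in proliferating cells and high at both differentiation stages. It had 13 and 11 reads in the D0 libraries, then 167 and 143 on D4, and 145 and 187 by D8. The level was 386 ± 64.6 circCPM (SD, n = 2) before induction, 3655 ± 315 by D4 and 3443 ± 350 by D8. Both D0 libraries lay below all later ones, and the D4 and D8 libraries overlapped. The mean was 9.47 times the D0 level on D4 and 8.92 times on D8. In the edgeR fit over all circRNAs the log2 fold change was 3.33 ± 0.29 (SE) on D4 against D0, 3.24 ± 0.29 on D8 against D0 and -0.08 ± 0.25 on D8 against D4. Its rank among the circRNAs of a library moved from places 518 and 693 on D0 to places 21 and 32 on D4 and 35 and 24 on D8. In these bulk cultures, more cells that make a circRNA and more of it per cell cannot be told apart.

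The Dcbld2 circRNA went the other way. It had 286 and 146 reads at D0, 73 and 58 at D4, and 115 and 107 at D8. These gave 9499 and 4519 circCPM for D0, then 1695 and 1392 for D4, with 2535 and 2112 for D8. Its D0 libraries were the highest 2 of the 6, its D4 libraries the lowest, and no stages overlapped. The D0 replicates differed 2.10-fold, and their 95% Wilson intervals of 8464 to 10658 and 3844 to 5311 circCPM did not overlap. Wilson intervals here cover counting error only, since amplified copies of a molecule cannot be told from separate molecules. The stage means were 7009 ± 3521, 1544 ± 214 and 2323 ± 299 circCPM. The D0 mean was 4.54 times that of D4 and 3.02 times that of D8. The log2 fold change was -2.09 ± 0.37 on D4 against D0, -1.50 ± 0.37 on D8 against D0 and 0.59 ± 0.38 on D8 against D4. Without the D0 library of replicate 1, the first became -1.42 and the second -0.83.

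The Svep1 circRNA was the most abundant of the 4, with 1653 reads and place 8 among all circRNAs. It had 130 and 122 reads before induction, 299 and 279 after 4 days, and 424 and 399 after 8. The level was 4047 ± 383 circCPM before induction, 6820 ± 173 by D4 and 8610 ± 1040 by D8. The libraries of the 3 stages did not overlap and followed the order of the days. The mean was 1.69 times the D0 level on D4 and 2.13 times on D8, a smaller change than that of the Egfr circRNA. The log2 fold change was 0.84 ± 0.21 on D4 against D0, 1.18 ± 0.21 on D8 against D0 and 0.34 ± 0.21 on D8 against D4.

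The Cped1 circRNA had 21 and 25 reads in the D0 libraries, then 215 and 252 on D4, and 281 and 195 by D8. Its level was 736 ± 54.0 circCPM at D0, 5521 ± 748 at D4 and 5021 ± 1658 at D8. Both D0 libraries were again below all others. The D8 libraries, at 6193 and 3848 circCPM, lay on either side of both D4 libraries. The mean was 7.50 times the D0 level on D4 and 6.83 times on D8. The log2 fold change was 2.99 ± 0.32 on D4 against D0, 2.86 ± 0.32 on D8 against D0 and -0.13 ± 0.29 on D8 against D4.

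**Figure D2:**
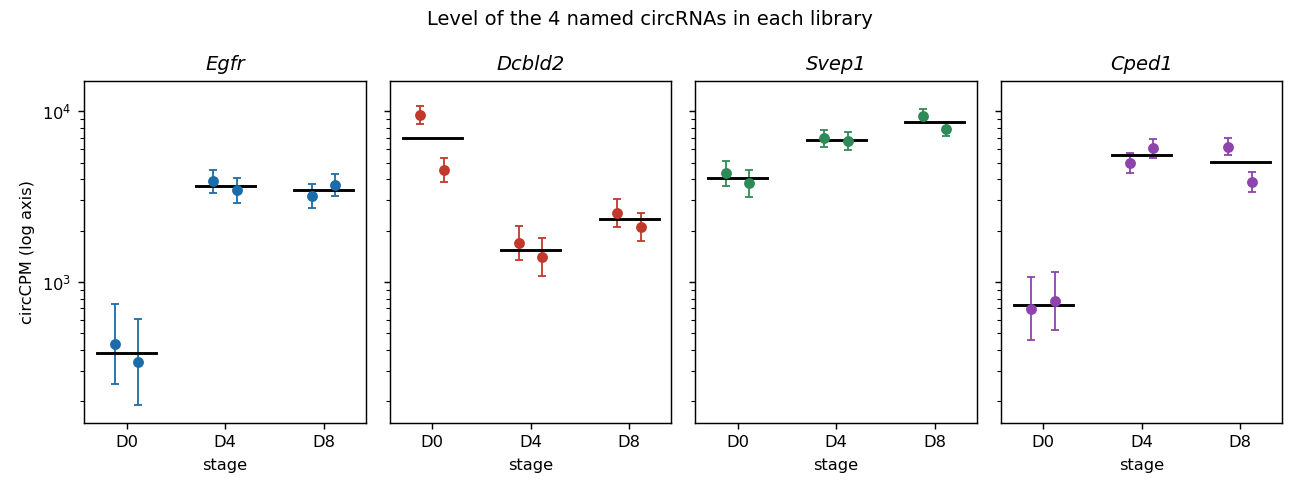
Level of each named circRNA in circCPM (log axis) by stage. Points are the 6 libraries with 95% Wilson intervals of the counting error, and black lines are stage means; Egfr and Cped1 lie lowest on D0, Dcbld2 lies highest there, and Svep1 climbs from 4047 to 8610 circCPM.

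The order of the 4 circRNAs by level therefore changed between D0 and D4. On D0 the order from high to low was Dcbld2, Svep1, Cped1, Egfr. On D4 and D8 it was Svep1, Cped1, Egfr, Dcbld2. Libraries of neighbours in these orders did not overlap at any stage, but some gaps were narrow. On D0 the lower Dcbld2 library had 4519 circCPM and the higher Svep1 library 4318, and on D8 the lower Cped1 library had 3848 and the higher Egfr library 3690. Counting intervals (95%, Wilson) of the closest libraries overlapped for 6 of the 9 neighbouring pairs. Those that did not overlap were Svep1 over Cped1 on D0 and D8 and Egfr over Dcbld2 on D4. The 4 circRNAs took up 1.49 and 0.941% of all reads in D0 libraries, 1.75 and 1.76% at D4, and 2.13 and 1.75% at D8.

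Of 1407 circRNAs that passed the filter on low counts, the edgeR quasi-likelihood test called 16 across the 3 stages (1.14%) at an adjusted p under 0.05. It called 46 on D4 against D0 (3.27%), 21 on D8 against D0 (1.49%) and 1 on D8 against D4 (0.0711%). Calls of the named circRNAs are not given, since these values chose them. At an unadjusted p under 0.05, 172 of all circRNAs passed on D8 against D4, and DESeq2 called 6. The comparisons with D0 share the same 2 D0 libraries.

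**Figure D3:**
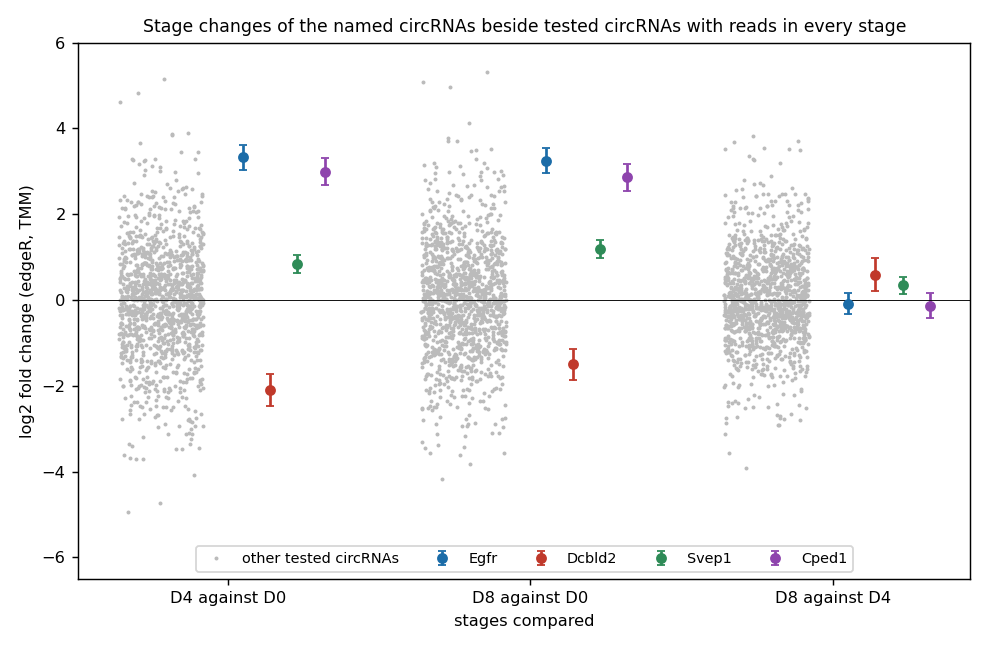
Log2 fold changes (edgeR, TMM) on the y axis for the 3 pairs of stages. Grey points are the tested circRNAs with reads in every stage, 1284 with the named ones, and coloured points are the named circRNAs with their SE; Egfr, Cped1 and Svep1 lie above 0 and Dcbld2 below it in both comparisons with D0, which share the D0 libraries.

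A second Egfr circle overlapped the named circRNA. It begins at the same exon 14 but runs on to exon 20 (chr11:16781467-16797082), so its 844 bases pass through the exons for the membrane span into the kinase domain. It had 6 and 9 reads on D4 and was listed at 0 in the D0 and D8 libraries. The D4 levels were 139 and 216 circCPM. The named circle took 96.5 and 94.1% of the reads of this locus on D4, with 95% Wilson intervals of 92.6 to 98.4% and 89.1 to 96.9%, and all reads on D0 and D8. With only 13 and 11 reads on D0, shares down to 77.2 and 74.1% lie within the intervals there.

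The Dcbld2 locus held a circle of exon 2 alone (chr16:58424674-58424901), 228 bases long, which shares its start with the named circRNA. It had 11 and 2 reads on D0 and was listed at 0 on D4 and D8. The D0 library with more of the named circRNA also had more of this one. The named circle took 96.3 and 98.6% of the locus reads on D0.

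The Cped1 locus held a pair of longer circles. They start at exon 5 (chr6:22035030-22095687, 1427 bases) and exon 7 (chr6:22069462-22095687, 1125 bases), and end at the same exon 15 as the named circRNA. The circle from exon 5 had 9 and 16 reads on D4, 0 and 3 on D8, and was listed at 0 on D0. The circle from exon 7 had 7 and 9 reads on D4, 8 and 6 on D8, and was listed at 0 on D0. The named circle took 93.1 and 91.0% of the locus reads on D4 and 97.2 and 95.6% on D8. The intron after exon 15 is 69824 bases long, longer than 96.4% of the introns that follow a circle.

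The 3 back-splices of the Cped1 locus show the shared end before the joint, in lower case, and the different starts after it, in capitals.
Cped1, exon 11 start: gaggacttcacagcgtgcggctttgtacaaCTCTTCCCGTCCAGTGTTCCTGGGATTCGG
Cped1, exon 5 start: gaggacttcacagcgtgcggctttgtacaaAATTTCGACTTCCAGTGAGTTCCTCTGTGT
Cped1, exon 7 start: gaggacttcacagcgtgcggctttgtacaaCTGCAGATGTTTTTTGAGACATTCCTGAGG

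Divergent primers that the study designed for the Cped1 circRNA lie on the named circle, and their product of 230 bases crosses the back-splice, with 132 bases before it and 98 after it.
Forward primer: atctctgtgcttgtggtgga
Reverse primer: aaaagggaccagtactgcga

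None of the 4 overlapping circRNAs passed the filter on low counts by itself. The table lists a circRNA when both replicates of some stage reach 2 reads, and these 4 entered through a stage where they were present, so their absence elsewhere is no support for a change. Summed, the other 2 Cped1 circles had 16 and 25 reads on D4, 8 and 9 on D8 and 0 on D0. This sum passed the filter, but no test of it is given, since its entry through the later stages decides the comparison with D0. The Egfr and Dcbld2 circles had too few reads for a test.

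**Figure D4:**
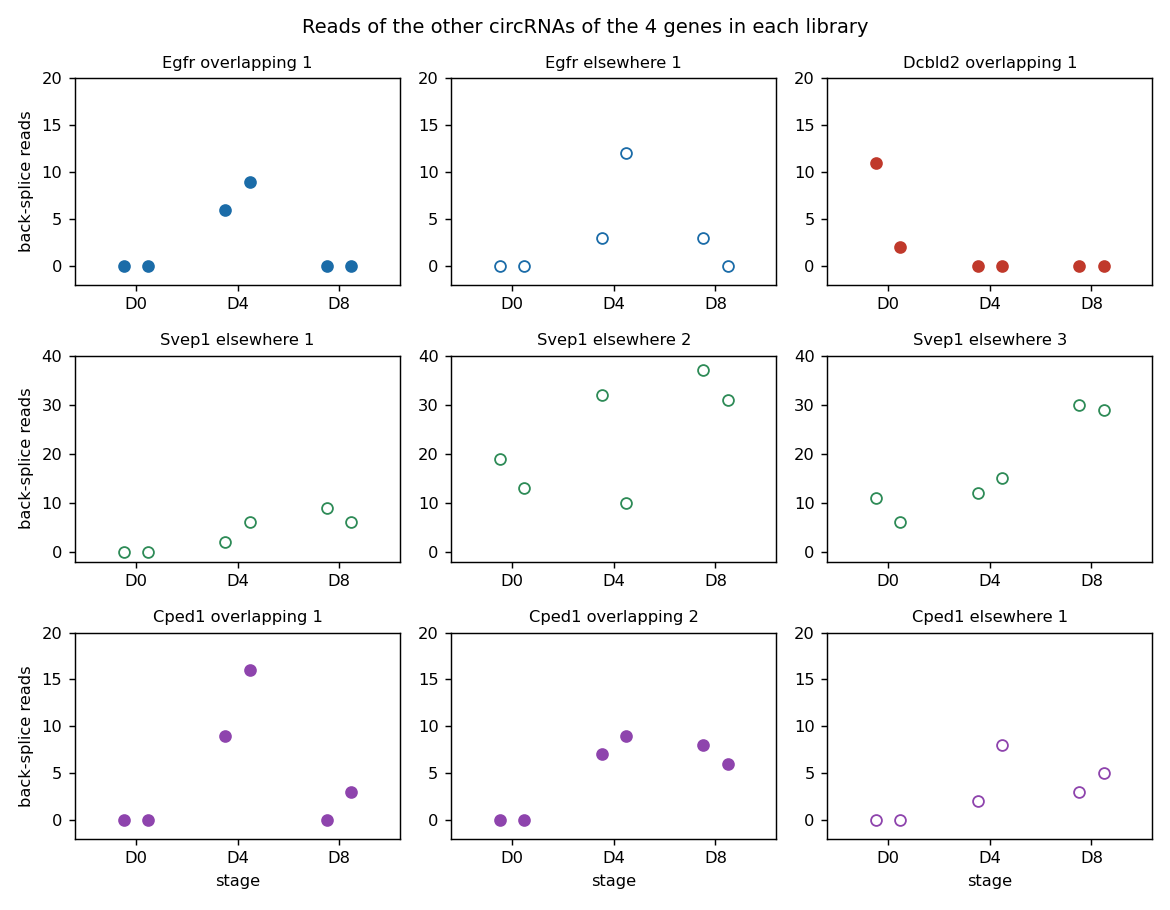
Back-splice reads of the 9 other circRNAs of the 4 genes by stage, 1 panel each, with 1 point per library; filled points overlap a named circRNA and open points lie elsewhere in the gene. The y axis reaches 20 reads, or 40 for Svep1; the Egfr, Svep1 and Cped1 circles at 0 on D0 had reads on D4, and the Dcbld2 circle had reads on D0 only.

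The genes gave 5 more circRNAs away from the named circles, which the choice of members did not use. Svep1 had 3 of them. The circle of exons 22 to 24 (chr4:58112815-58117423) had 19 and 13 reads at D0, 32 and 10 at D4, and 37 and 31 at D8. The circle of exons 18 to 21 (chr4:58119167-58124332) had 11 and 6 reads before induction, 12 and 15 after 4 days, and 30 and 29 after 8. In circCPM its D8 libraries (661 and 572) lay above all others, which had at most 365. On D8 against D0 the log2 fold change was 0.56 ± 0.63 for the first and 1.25 ± 0.57 for the second, with edgeR adjusted p of 0.674 and 0.289. Across the stages the adjusted p was 0.788 and 0.364. Neither circle passed the test between any pair of stages.

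The other 3 circRNAs had too few reads for the test. Svep1 exons 33 and 34 had 2 and 6 reads on D4, 9 and 6 on D8, and were listed at 0 on D0. Egfr exons 2 to 4 (chr11:16758899-16763083) had 3 and 12 reads on D4, 3 and 0 on D8, and were listed at 0 on D0. Cped1 exons 2 to 4 (chr6:21966903-22009952) had 2 and 8 reads on D4, 3 and 5 on D8, and were listed at 0 on D0.

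The circRNAs most like each named circRNA were ranked by Pearson's r of log2(circCPM + 10) over the 6 libraries, among 397 others with a mean of 20 or more reads. The libraries of a stage share their treatment, so r describes these 6 libraries and carries no test. Egfr was most like Eri3 (mmu_circ_0011088, r = 0.995), which had 9 and 10 reads in the D0 libraries, then 37 and 32 on D4, and 34 and 42 by D8. Next came a pair of circRNAs of Acss3, an acyl-CoA synthetase of mitochondria (r = 0.993 and 0.987), both listed at 0 on D0. Cped1 was most like the first of these Acss3 circRNAs (r = 0.984), with 64 and 61 reads on D4 and 99 and 95 on D8. It was followed by Fndc3b (mmu_circ_0010609, r = 0.973) and Eri3 (r = 0.969). Fndc3b, known as a regulator of adipocyte differentiation, had 4 and 9 reads at D0, 76 and 82 at D4, and 61 and 57 at D8.

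Svep1 was most like Agap1 (mmu_circ_0000061, r = 0.978), a GTPase-activating protein for Arf, with 9 and 7 reads before induction, 25 and 20 after 4 days, and 37 and 42 after 8. It was followed by Mlxipl (r = 0.971), which encodes the carbohydrate response factor ChREBP, and by the second Acss3 circRNA (r = 0.961). Dcbld2 was most like Sacm1l (mmu_circ_0015402, r = 0.984), a phosphoinositide phosphatase, Zfp827 (mmu_circ_0001698, r = 0.983) and Apbb2 (mmu_circ_0012733, r = 0.980). The Zfp827 circRNA had 51 and 35 reads in the D0 libraries, then 9 and 8 on D4, and 19 and 16 by D8, so it too was higher in replicate 1 on D0. Among the named circRNAs themselves, r was 0.973 between Egfr and Cped1 and -0.883 between Egfr and Dcbld2.

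Of 71 genes of the EGF receptor pathway, from ligands and adaptors to Ras and MAP kinase, 28 had 61 circRNAs beside the members. Of the 30 tested, 0 were called by edgeR or DESeq2 across the stages or between any pair of stages. Over all 1407, edgeR called 1.14% across the stages, 3.27 and 1.49% on D4 and D8 against D0, and 0.0711% on D8 against D4. DESeq2 called 78, 68, 50 and 6 of the 1407 in the same order. With shares this low, 0 of 30 is not read as a result about the pathway. At an unadjusted edgeR p under 0.05, 5, 5, 4 and 2 of the 30 passed in that order. These are 16.7, 16.7, 13.3 and 6.67% of the 30, where 21.0, 19.9, 18.8 and 12.2% of all 1407 passed at that level. The median log2 change was 0.01 on D4 against D0 and -0.25 on D8 against D0, where all 1407 had medians of 0.03 and 0.05. The named Egfr circRNA stands outside these counts. Some genes are in more than 1 of the lists that follow. All of the lists were chosen with earlier results of these libraries known, so the counts that follow are a description. A circRNA with fewer than 2 reads in a D0 library entered the table through a later stage, which in part decides its comparison with D0, so only its reads and whether it passed the test are given, with no p or fold change, and it is not counted as having risen. Medians and shares at an unadjusted p include such circRNAs, so a gap from the share of all circRNAs is not read as a result.

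Among 111 genes of surface receptors and adhesion, 45 had 82 circRNAs, and 29 were tested. On D4 against D0, 3 passed the test, where 2.20% of all tested circRNAs rose and 1.07% fell. Those that rose were circRNAs of Tgfbr2, the type II receptor for TGF-beta, and Acvr2a, an activin receptor, and 1 had entered through a later stage. The Tgfbr2 circRNA (mmu_circ_0001853) had 3 and 7 reads at D0, 65 and 61 at D4, and 45 and 68 at D8. Its log2 fold change on D4 against D0 was 3.29 ± 0.50, with an edgeR adjusted p of 0.0254. On D8 against D0 it was 2.94 ± 0.50 (adjusted p 0.0329), the 1 receptor called there, where 1.21% of all rose and 0.284% fell. The Acvr2a circRNA (mmu_circ_0001017) had 49 and 100 reads before induction, 298 and 302 after 4 days, and 242 and 243 after 8, and rose by 1.67 ± 0.30 on D4 (adjusted p 0.0343). The circRNA that entered later came from Ror1, a Wnt5a receptor, and had 0 and 2 reads in the D0 libraries, then 41 and 38 on D4, and 26 and 29 by D8. At an unadjusted p under 0.05, 34.5% of the 29 passed on D4 and 41.4% on D8, where 19.9 and 18.8% of all 1407 did. The median of the 29 was 0.49 on D4 and 0.09 on D8. Each of the 3 calls on D4 was lost without either D4 library, that of Acvr2a also with no filter (adjusted p 0.0568), and that of Tgfbr2 on D8 without the first D0, either D4 or the second D8 library.

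Of 101 extracellular matrix genes, 23 had 49 circRNAs beside the members, and 19 were tested. On D4 against D0, 4 passed the test, where 3.27% of all tested circRNAs did and 1.07% fell. Of the 4, 2 fell and 2 had entered through a later stage. The circRNAs that fell came from Ltbp1, which binds latent TGF-beta, and Crim1, a membrane protein with BMP-binding repeats. Ltbp1 (mmu_circ_0007013) had 27 and 46 reads at D0, 5 and 8 at D4, and 9 and 16 at D8, a log2 fold change of -2.80 ± 0.58 on D4 (edgeR adjusted p 0.0463). Crim1 (mmu_circ_0000818) had 32 and 24 reads before induction, 4 and 4 after 4 days, and 7 and 10 after 8, a log2 fold change of -3.13 ± 0.62 on D4 (adjusted p 0.0373). Those that entered later belong to Bmper, a secreted protein that binds BMPs, and were listed at 0 on D0. The first (chr9:23058816-23105466) had 49 and 48 reads on D4 and 12 and 26 on D8, and the second (mmu_circ_0015472) 48 and 25 after 4 days and 8 and 14 after 8. The first of Bmper was the 1 call on D8, where 1.49% of all were called, and this call was lost under 9 of 13 alternatives. At an unadjusted p under 0.05, 63.2% of the 19 passed on D4 and 52.6% on D8, against the 19.9 and 18.8% of all circRNAs. The median of the 19 was 0.03 on D4 and 0.00 on D8. All 4 calls on D4 were lost without either D4 library, those of Ltbp1 and Crim1 also without either D0 library, and that of the second Bmper circRNA also without the second D0 library. With no filter the adjusted p on D4 was 0.0653 for Ltbp1 and 0.0649 for Crim1, and with a mean of 5 or more counts it was 0.0509 for Ltbp1.

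Of 66 genes of matrix processing, 19 had 34 circRNAs, 13 were tested, and 2 passed the test on D4 against D0, where 3.27% of all did and 2.20% rose. Both came from Pcsk5, a proprotein convertase. The longer (mmu_circ_0000937) rose, with 2 and 7 reads in the D0 libraries, then 59 and 68 on D4, and 31 and 14 by D8 (log2 fold change 3.45 ± 0.71 on D4, edgeR adjusted p 0.0407 on D4 and 0.214 on D8). The shorter (mmu_circ_0000938) was listed at 0 on D0, entered through the later stages, and had 26 and 18 reads on D4 and 22 and 16 on D8. Both calls on D4 were lost without any 1 of the D0 or D4 libraries, and that of the longer also with a mean of 5 or more counts (adjusted p 0.0507). At an unadjusted p under 0.05, 30.8% of the 13 passed on D4 and as many on D8, against 19.9 and 18.8% of all. The median of the 13 was -0.20 on D4 and -0.64 on D8.

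Of the adipocyte markers, 13 circRNAs were tested, and 3 passed the test on D4 and 4 on D8, where 3.27 and 1.49% of all did. The list took in Acss3, Bckdhb and Mlxipl with their changes in these libraries known. The 1 that rose from reads on D0 was Bckdhb (mmu_circ_0001822), a subunit of the branched-chain ketoacid dehydrogenase, with 41 and 29 reads at D0, 167 and 147 at D4, and 162 and 149 at D8, and edgeR adjusted p of 0.0302 on D4 and 0.0498 on D8. The call of Bckdhb on D4 was lost without either D4 library and that on D8 under 10 of 13 alternatives. The others, 2 on D4 and 3 on D8, had entered through a later stage. They were both Acss3 circRNAs, the second with 45 and 21 reads on D4 and 60 and 60 on D8, and on D8 also Mlxipl, listed at 0 on D0 with 10 and 7 reads on D4 and 43 and 65 on D8. The second Acss3 circRNA lost its call on D4 without the first D4 library. At an unadjusted p under 0.05, 53.8% of the 13 passed on D4 and 76.9% on D8, against 19.9 and 18.8% of all. Both shares take in circRNAs listed at 0 on D0, whose entry through a later stage in part decides them. The median of the 13 falls on circRNAs listed at 0 on D0, so it is not given as a value.

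**Figure D5:**
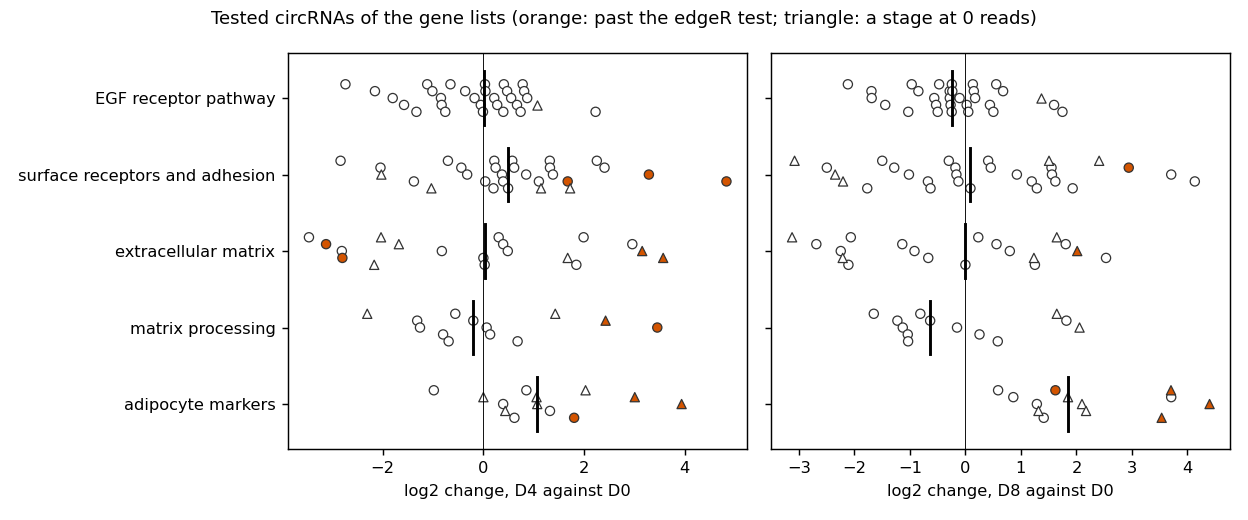
Log2 change on D4 and on D8 against D0 (x axes) of the tested circRNAs of 5 gene lists, without the members. Orange points passed the edgeR test, and bars are medians. Triangles had a stage at 0 reads and are drawn with 3 reads set in each library of it. The EGF receptor pathway has 0 orange points, where edgeR called 3.27% of all tested circRNAs on D4 and 1.49% on D8. Orange triangles are circRNAs that entered the table through a later stage. The orange circle farthest right among the receptors on D4 is Ror1, which had 0 and 2 reads on D0. Positions of circRNAs that entered later, and medians that take them in, are in part decided by that entry and are not read as rises.

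The Cped1 circRNA was also searched for seed matches of miR-26a-5p and miR-26b-5p, since the study's list of predicted pairs couples it with miR-26a and miR-26b. Their mature sequences, from RefSeq, share 1 seed, bases 2 to 8, in capitals.
mmu-miR-26a-5p: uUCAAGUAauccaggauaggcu
mmu-miR-26b-5p: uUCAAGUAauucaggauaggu

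The motif was the full complement of the seed, TACTTGA, searched on the strand of the RNA only, round the back-splice included. It had 0 matches in the named Cped1 circle and in all other members. Of 3338 spliced circles 85 held it (2.55%), and of 407 circles of 573 to 699 bases, near the length of the Cped1 circle, 15 did (3.69%). The search covered these letters in the spliced exons alone, and shorter or shifted seed matches were not searched. The study's pairs were predicted by miRDB score, a different measure, so 0 matches here does not decide on them. The list also couples this circRNA with miR-466d-5p and miR-466i, which were not searched.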

How the data were processed

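The authors trimmed reads with fastp, aligned them to the mouse genome mm9 with BWA-MEM and called circRNAs with CIRI2, and they deposited a raw count of back-splice reads per circRNA and library, without normalization. The submitters' notes also name FastQC 0.11.9 and HISAT2 2.2.0. Every one of the 3662 circRNAs reached 2 reads in each replicate of at least 1 stage. The members and gene lists were chosen with earlier results of these data known.

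Ends were matched to exons of the GENCODE annotation of mm9, start positions count from base 1, and gene symbols were brought up to date with RefSeq. Levels are circCPM from column totals. Stages were compared in R 4.3.3 with edgeR 4.0.16 (quasi-likelihood test, TMM, filterByExpr with a minimum count of 10 and a minimum total of 15, Benjamini-Hochberg adjustment over 1407 circRNAs at 0.05, common dispersion 0.219), without a replicate block, on all 6 libraries. Overlapping circles were summed per gene in the same fit, but their tests are not reported, since each entered the table through the stage where it was present. Alternatives were RLE factors in edgeR, column totals alone, filtering nothing or at a mean of 5 or 20 reads, DESeq2 1.42.0, a replicate block, and each library left out, the lone library of its stage then being taken to vary as the rest do. For likeness they were pseudocounts of 1 and 50 circCPM in place of 10 and a mean of 50 or more reads, and for levels TMM-scaled library sizes. The circRNAs named are all those of the 4 genes, the 3 most like each named circRNA, and those of the gene lists past the test. Sequences come from the mm9 genome and, for miRNAs, RefSeq. The rest was done in Python 3.11.15 (pandas 2.3.3, numpy 2.4.6) and drawn with matplotlib 3.10.9. Parental mRNA and qPCR data were not analysed here.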

Additional observations from a re-analysis of the deposited data

How the results depend on the processing

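Direction of the Egfr, Dcbld2, Svep1 and Cped1 changes against D0 held under every alternative run, and TMM-scaled library sizes moved 0 of 12 stage levels beyond the replicate SD. With a mean of 20 or more counts the log2 fold changes on D4 and D8 against D0 were 3.06 and 3.04 for Egfr and 0.57 and 0.98 for Svep1. With each library left out they ranged from 3.18 to 3.54 and from 3.10 to 3.46 for Egfr, from -2.51 to -1.42 and from -1.92 to -0.83 for Dcbld2, from 0.76 to 0.98 and from 1.08 to 1.35 for Svep1, and from 2.91 to 3.10 and from 2.50 to 3.21 for Cped1. On D8 against D4 they ranged from -0.18 to 0.06, from 0.45 to 0.80, from 0.21 to 0.47 and from -0.52 to 0.19 in the same order, with a change of sign for Egfr and Cped1.

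Counts of calls depended on the setting. Across the stages there were 16 calls in the main analysis, 5 with column totals alone, 396 with no filter, 5 with a mean of 5 or more counts, 71 with a mean of 20 or more, 78 with DESeq2, and 2 to 58 with 1 library left out. The cause was not tested. On D4 against D0, 46 calls became 4 without either D4 library, and the range with 1 library left out was 4 to 67. On D8 against D0, 21 became 41 with a mean of 20 or more and 50 with DESeq2, and 11 to 27 with 1 library left out. On D8 against D4, 1 became 2 with a mean of 20 or more, 6 with DESeq2 and 0 to 15 with 1 library left out. Libraries left out add circRNAs to the test, 1846 to 1949 in place of 1407. Of all 1407, DESeq2 called 68 on D4 and 50 on D8 against D0. Among the lists it called 3 and 4 circRNAs of surface receptors and adhesion, and 4 and 3 of extracellular matrix. It called 3 and 1 of matrix processing, and 4 and 6 of adipocyte markers. These counts include circRNAs that entered through a later stage.

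With a replicate block the calls were 4 across the stages, 17, 4 and 0 for the pairs of stages. Samples share only a replicate number: deviations of same-numbered libraries correlated at 0.0221, 0.0207 and 0.0769 over 401 circRNAs. The block also ended calls of Bckdhb and Tgfbr2 on D8 (adjusted p 0.058 and 0.0656) and of Ltbp1, Crim1, Acvr2a and the longer Pcsk5 circRNA on D4 (0.0615, 0.0723, 0.0507 and 0.0818). Among circRNAs that entered through a later stage, it ended calls of the first of Bmper, Mlxipl and the second of Acss3 on D8. On D4 it ended those of the second of Bmper, the shorter of Pcsk5 and Ror1. Alternatives for the summed Cped1 circles are not given, as the test is void. Of the 3 most similar circRNAs, 1, 0, 1 and 0 remained for Cped1, Dcbld2, Egfr and Svep1 with a mean of 50 or more reads, and 2 or 3 under the other pseudocounts. All of these circRNAs but the first of Acss3 have too few reads for that stricter mean. Their loss was thus fixed by the filter and does not show whether the likeness is stable. Depth limits the overlapping circles, which had at most 16 reads in a library.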
